A study of Mus musculus with 42 samples.

Results

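The genes described here are 10 genes of the hepatocyte bile acid and drug transport system, Slc10a1, Abcb11, Abcc2, Abcc3, Abcc4, Slco1a1, Slco1a4, Slco1b2, Nr1h4 and Nr0b2. They were chosen by name as transporters and receptors of that system, were all found in the deposited count table of 54446 genes, and were all among the 15574 genes with enough counts to be tested. Liver RNA was sequenced in 42 female transgenic APOE*3-Leiden mice, which carry a human APOE variant and become hyperlipidemic on a fatty diet, with 1 library per mouse. The chow group of 10 mice stayed on maintenance chow. The WTD group of 16 mice received a Western-type diet with 15% cocoa butter, 40.5% sucrose and 1% cholesterol, starting at an age of 8 to 14 weeks and with a run-in of 3 weeks. The atorvastatin group of 16 mice ate the same WTD and received atorvastatin, an inhibitor of HMG-CoA reductase, mixed into it at 3.0 mg/kg/day and from week 5 at 4.5 mg/kg/day. Both WTD-fed groups, but not the chow group, also had 0.05% sodium cholate in the diet from week 22 until the endpoint at week 32. Cholate is itself a bile acid, so its effect and that of the other parts of the WTD cannot be told apart. The age of the chow-fed mice is not given in the labels, and the transgene is carried by all 42 mice, so no group lacks it.

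Bile acids are made from cholesterol in hepatocytes and circulate between liver and intestine. NTCP (Slc10a1) takes up conjugated bile acids from the blood together with sodium, and the organic anion transporting polypeptides (Slco1a1, Slco1a4, Slco1b2) take up bile acids, bilirubin and many drugs, statins among them, without sodium. BSEP (Abcb11) pumps bile salts across the canalicular membrane into bile, and MRP2 (Abcc2) exports conjugates of bilirubin and of drugs there. MRP3 (Abcc3) and MRP4 (Abcc4) lie in the basolateral membrane and return anions to the blood. FXR (Nr1h4) is the nuclear receptor that binds bile acids. It is known to induce Abcb11 and SHP (Nr0b2), a receptor without a DNA-binding domain that represses genes of bile acid synthesis and uptake.

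The 10 genes lie on 8 chromosomes (GRCm38, GENCODE vM21). The 3 Slco genes are neighbors on chromosome 6, with Slco1b2 at chr6:141629518-141686646 on the plus strand, Slco1a4 at chr6:141805440-141856199 and Slco1a1 at chr6:141907282-141946962, both on the minus strand. Slc10a1 lies at chr12:80953183-80968705, Abcb11 at chr2:69238282-69342616, Abcc4 at chr14:118482692-118706219 and Nr1h4 at chr10:89454234-89533585, all on the minus strand. Abcc2 was at chr19:43782192-43840740 (plus), Abcc3 at chr11:94343295-94392997 (minus) and Nr0b2 at chr4:133553376-133556536 (plus). All are protein-coding. Abcb11 shares 136 exon bases with the antisense gene Gm13613 on the opposite strand, which had 0.0736% of the counts of Abcb11. Slco1a1 and Slco1a4 have close paralogs beside them and may share reads with these, so their split is uncertain.

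RefSeq sequences of GRCm38.p6 held a promoter for 9 of the 10 genes, with Abcc3 as the exception. The 250 bases before the transcription start are shown for 3 genes whose window holds a motif of a receptor or factor known for this pathway. An inverted repeat of AGGTCA with 1 base between the repeats (AGGTCANTGACCT, its own reverse complement) is the element that FXR with its partner RXR is known to bind, and TGACNNNGC (searched on both strands) is the core of the antioxidant response element bound by NRF2. With at most 1 mismatch the inverted repeat stands in capitals in Abcb11 (chr2:69342617-69342866, minus strand), 63 to 51 bases before the start, and in Slco1b2 (chr6:141629268-141629517, plus strand), 88 to 76 bases before the start. The core of the antioxidant response element stands in capitals in Abcc4 (chr14:118706220-118706469, minus strand), 25 to 17 bases before the start and on the reverse strand.
Abcb11: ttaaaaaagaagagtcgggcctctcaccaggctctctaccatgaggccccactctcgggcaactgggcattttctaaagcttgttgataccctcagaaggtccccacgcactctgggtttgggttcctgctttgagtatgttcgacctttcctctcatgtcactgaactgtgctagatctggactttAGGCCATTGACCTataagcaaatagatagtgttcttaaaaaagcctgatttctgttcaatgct
Slco1b2: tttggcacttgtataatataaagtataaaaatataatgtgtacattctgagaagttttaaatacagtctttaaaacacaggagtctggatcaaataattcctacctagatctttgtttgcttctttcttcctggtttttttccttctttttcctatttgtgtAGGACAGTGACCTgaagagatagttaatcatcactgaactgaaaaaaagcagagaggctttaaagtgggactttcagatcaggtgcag
Abcc4: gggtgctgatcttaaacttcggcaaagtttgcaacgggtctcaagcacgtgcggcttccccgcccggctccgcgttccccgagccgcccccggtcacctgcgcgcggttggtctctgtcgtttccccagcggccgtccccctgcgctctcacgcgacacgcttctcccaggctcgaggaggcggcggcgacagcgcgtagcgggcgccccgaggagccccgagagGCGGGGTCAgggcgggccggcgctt
Of all 32851 RefSeq promoters of this length, 26 (0.0791%) held the inverted repeat at this tolerance, against 2 of the 11 windows of the described genes, where Slc10a1 and Abcc4 count with 2 starts each. A single AGGTCA or its reverse complement, which the inverted repeat can contain, was in 6 of the 11 windows and in 14.0% of all promoters. The TGACNNNGC core was in 3 of the 11 windows, namely both Abcc4 starts and Abcc2, and in 10.2% of all promoters. The Nr0b2 window had at least 4 mismatches to the inverted repeat. The motifs were chosen with the expression results known, and a match is a description of letters only.

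The libraries held 15661381 to 36224054 counts on genes, with medians of 20405093.5 on chow, 21095129 on WTD and 18180048.5 with atorvastatin. Levels are given as CPM, which are counts relative to a library size scaled by TMM. SE is the standard error of a log2 fold change, and every adjusted p of a gene is a Benjamini-Hochberg value over all tested genes. In 9 libraries (3 chow, 5 WTD, 1 atorvastatin) over 20% of weakly expressed genes had no count, which of the 10 genes touches Slco1a1. WTD replicate 15, 1 of these 9, stood apart from the other WTD-fed mice, and results that rest on it are given without it as well. It was singled out after the levels were seen, as the highest WTD-fed mouse in several of the 10 genes. Leaving it out therefore widens the difference from treated mice in those genes, and a p without it is a description only. The hepatocyte identity of the tissue was plain, since 5 matched markers (Alb, Ttr, Apoa2, Ahsg, Fgb) summed to 107164 to 153946 CPM on chow. This sum was 48949 to 101611 CPM on WTD and 60268 to 123664 CPM with atorvastatin, so it moved with the diet. All 5 were called lower on WTD than on chow and 2 of 5 higher with atorvastatin than on WTD, while 6 of 6 cholangiocyte markers, 6 of 7 macrophage markers and 4 of 7 markers of stellate cells and fibroblasts were called higher on WTD. Of all tested genes 16.0% were called lower and 17.5% higher on WTD than on chow, and 4.84% higher with atorvastatin than on WTD. The sums on chow, on WTD and with atorvastatin ranged over 19.1 to 49.0, 34.1 to 151.8 and 44.7 to 122 CPM for cholangiocytes, and over 270.5 to 459, 1631 to 2689 and 1303 to 2052 CPM for macrophages. They were 170.0 to 402, 711 to 2048 and 620.5 to 2021 CPM for stellate cells and fibroblasts and 313 to 448, 240.5 to 414 and 300.0 to 440.5 CPM for endothelium, and the sum of 4 pancreatic acinar markers was 0 on chow and at most 1.63 CPM on WTD and 0.838 CPM with atorvastatin. Of these, Cpa1 and Prss2 were at 0 in every mouse, while Pnlip had 38 counts in 1 mouse and Cela3b 34 counts in 3 mice. In bulk tissue, fewer hepatocytes and less RNA per hepatocyte cannot be told apart, and the part of cell composition in the results below was not tested.

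**Figure D1:**
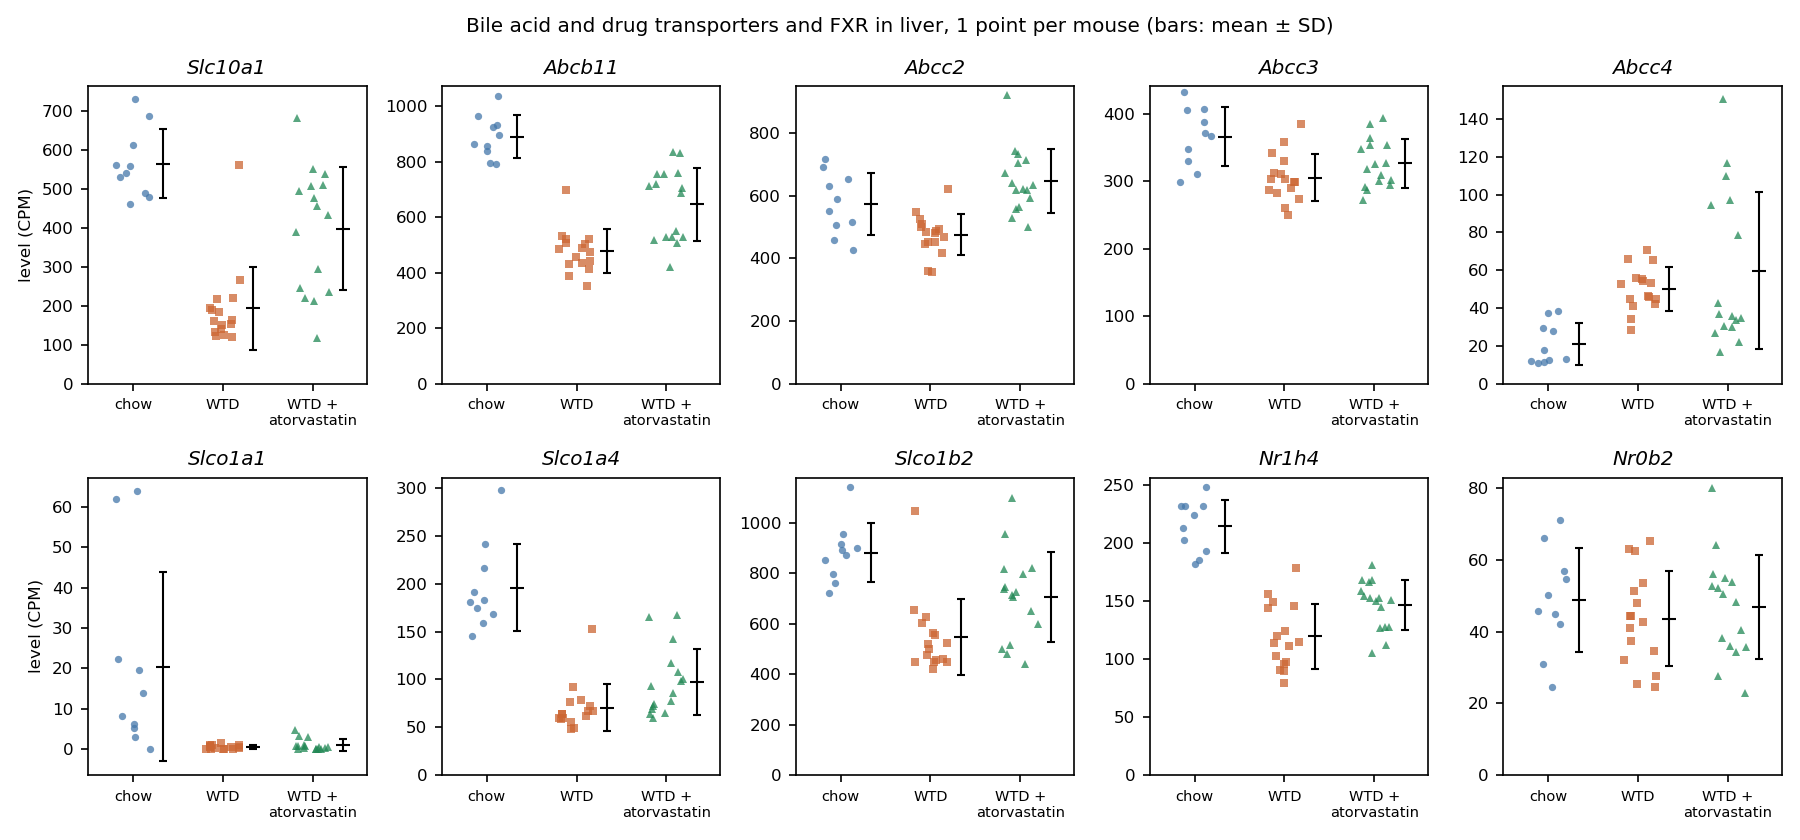
Level of each of the 10 genes (vertical axes, CPM) in chow-fed (n = 10), WTD-fed (n = 16) and atorvastatin-treated mice (n = 16), with 1 point per mouse and bars for the mean ± SD. Abcb11 and Nr1h4 of chow-fed mice lie above all WTD-fed mice, Nr0b2 overlaps in all groups, and the atorvastatin-treated mice are spread widely in Slc10a1 and Abcc4.

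On WTD, 9 of the 10 genes differed from chow, with 8 lower and 1 higher, at a Benjamini-Hochberg adjusted p under 0.01 in edgeR's quasi-likelihood test over all genes. Of all tested genes 33.5% were called in this comparison, 16.0% as lower and 17.5% as higher. The median log2 fold change of the 10 genes was -0.77, against 0.03 over all tested genes and -0.90 over the 5 hepatocyte markers. The gene that was higher was Abcc4, and the gene that was not called was Nr0b2. With atorvastatin, 3 of the 10 genes (Slc10a1, Abcb11 and Abcc2) were called higher than on WTD alone and 0 lower, where 7.10% of all tested genes were called (4.84% higher, 2.26% lower). Over all genes that split of 754 higher and 352 lower depended on the scaling, with 582 and 479 under RLE size factors and 706 and 689 in DESeq2, while the 3 genes were called higher in each. The median of the 10 log2 fold changes was 0.40, against 0.0016 over all tested genes and 0.25 over the 5 hepatocyte markers. Atorvastatin-treated mice still differed from chow-fed mice in 5 of the 10 genes, with Abcc4 higher and Abcb11, Slco1a1, Slco1a4 and Nr1h4 lower, where 25.0% of all tested genes were called (10.7% lower, 14.2% higher). Each pair of comparisons shares a group of mice, so their values are set side by side without a further test.

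**Figure D2:**
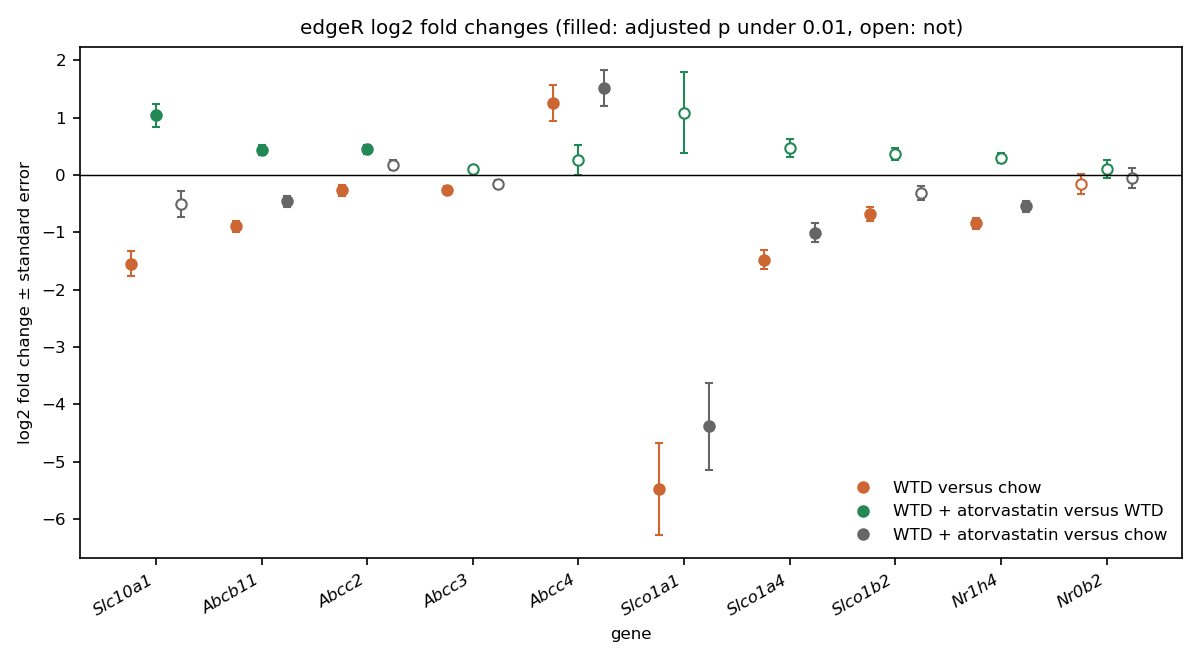
Log2 fold change with its standard error (vertical axis) for each gene in the 3 comparisons, from edgeR. Filled points passed an adjusted p of 0.01 and open points did not. Slco1a1 has the lowest points and the longest bars, and Abcc4 alone lies above 1 in both comparisons with chow.

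Slc10a1 (NTCP) had 462 CPM in the lowest, 549.6 in the median and 732 in the highest chow-fed mouse. On WTD these values were 119.8, 162 and 561 CPM, and with atorvastatin 118, 445 and 682 CPM. All but WTD replicate 15 of the WTD-fed mice lay below every chow-fed mouse, with the next highest at 266 CPM, whereas the atorvastatin-treated mice spanned both ranges. Mean levels were 565 ± 88.4 (SD, n = 10), 193 ± 106 (SD, n = 16) and 398 ± 158 CPM (SD, n = 16). The level on WTD was 2.92-fold lower than on chow (log2 fold change -1.55, SE 0.22, edgeR adjusted p = 2.0e-07). With atorvastatin it was 2.06-fold higher than on WTD alone (log2 fold change 1.04, SE 0.20, edgeR adjusted p = 0.00033), and 15 of 16 treated mice were above the WTD median. Against chow the log2 fold change was -0.51 (SE 0.22) and did not pass, with an adjusted p of 0.075 in edgeR.

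Among the sodium-independent uptake transporters, Slco1b2 was the most abundant. It ranged from 722 over a median of 882 to 1143 CPM on chow, from 422 over 510.1 to 1047 CPM on WTD, and from 440.5 over 719 to 1101 CPM with atorvastatin. The highest value on WTD was again that of replicate 15, and the other 15 WTD-fed mice reached at most 656 CPM, below every chow-fed mouse. On WTD it fell by 0.69 on the log2 scale (SE 0.12, edgeR adjusted p = 5.6e-06). The difference of atorvastatin from WTD, 0.37 (SE 0.11) had an adjusted p of 0.016 in edgeR, above the threshold. Without WTD replicate 15 the edgeR adjusted p was 0.00025, which follows in part from leaving out the highest WTD-fed mouse.

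Slco1a4 ranged from 146 over a median of 182 to 299 CPM on chow, from 47.9 over 63.5 to 153 CPM on WTD, and from 59.7 over 89.2 to 168 CPM with atorvastatin. WTD replicate 15 was the single WTD-fed mouse within the range of the chow group. The log2 fold change was -1.48 on WTD against chow (SE 0.17, edgeR adjusted p = 6.8e-10). Atorvastatin-treated mice remained 2.01-fold below chow (log2 fold change -1.01, SE 0.17, edgeR adjusted p = 4.4e-06). Against WTD alone the difference was 0.47 (SE 0.15), with an adjusted p of 0.029 in edgeR, above the threshold. Without WTD replicate 15 the edgeR adjusted p was 0.0010, which again follows in part from leaving out the highest WTD-fed mouse.

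Slco1a1 varied most on chow, from 0 over a median of 11.0 to 64.0 CPM. The chow-fed mouse at 0 (replicate 2) is 1 of the 9 libraries that missed weakly expressed genes, and chow replicates 6 and 7 had 64.0 and 62.0 CPM. On WTD the gene was at 0 to 1.35 CPM, with 0 to 28 counts per library and 0 counts in 5 of 16 mice. Of these 5, replicates 9, 10 and 16 are also among the 9 libraries that missed weakly expressed genes. With atorvastatin Slco1a1 was at 0 to 4.66 CPM, and replicate 8, with 0 counts, is such a library as well. The mean on WTD was 2.24% of the chow mean and the mean with atorvastatin 4.81%. All 32 WTD-fed mice of both groups lay below the chow median, but the ranges overlapped through the chow-fed mouse at 0. The log2 fold change of WTD against chow was -5.47 (SE 0.80, edgeR adjusted p = 3.0e-07) and that of atorvastatin against chow -4.39 (SE 0.76, edgeR adjusted p = 1.2e-05). Atorvastatin against WTD gave 1.09 with an SE of 0.70 (edgeR adjusted p = 0.37), so that a difference was not detectable at these low counts.

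Per kb of exon, the level on a scale that allows genes to be compared, Slco1b2 made up 83.7% ± 3.09 (SD, n = 10) of the sum of the 3 Slco genes on chow. Its share was 91.0% ± 1.35 in the 16 WTD-fed and 90.4% ± 1.40 in the 16 treated mice. The share of Slco1a4 was 14.3%, 8.96% and 9.45% in the same order, and that of Slco1a1 was 1.92%, 0.0789% and 0.129%. Slco1a4 and Slco1a1 thus took a smaller part on both WTD diets, as a description without a test.

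Of the canalicular pumps, Abcb11 (BSEP) was between 789.9 and 1039 CPM on chow with a median of 881. On WTD it was between 353 and 698 CPM with a median of 479, and with atorvastatin between 420.0 and 834 CPM with a median of 696. The chow and WTD groups did not overlap, as was the case for 5.83% of all tested genes (2.43% with WTD lower, 3.40% with WTD higher). The log2 fold change on WTD was -0.90 (SE 0.09, edgeR adjusted p = 1.2e-11). With atorvastatin it was higher than on WTD by 0.44 (edgeR adjusted p = 0.00021, SE 0.08), and against chow the log2 fold change remained at -0.46 (SE 0.09, edgeR adjusted p = 7.7e-05).

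Abcc2 (MRP2) differed little between the diets. Its levels were 427 to 717 CPM on chow, 357 to 622 CPM on WTD and 500.4 to 923 CPM with atorvastatin, with medians of 571, 482 and 628 CPM. The call on WTD against chow (log2 fold change -0.27, SE 0.09, edgeR adjusted p = 0.0091) was close to the threshold and was lost in 19 of 42 fits that left out 1 mouse and in 7 of 12 other ways of processing. With atorvastatin Abcc2 was 1.36-fold higher than on WTD alone (log2 fold change 0.45, SE 0.08, edgeR adjusted p = 6.9e-05), and all 16 treated mice were above the WTD median. Against chow the difference was 0.17 with an adjusted p of 0.13 in edgeR.

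The basolateral exporters went in opposite directions on WTD. Abcc3 (MRP3) was at 299 to 432 CPM on chow, 250.2 to 385 CPM on WTD and 272 to 393 CPM with atorvastatin. It fell by 0.26 on WTD (SE 0.07, edgeR adjusted p = 0.0019) and did not pass with atorvastatin against WTD (0.10, SE 0.06, edgeR adjusted p = 0.37). Abcc4 (MRP4) was weak in every group, at 10.7 to 38.3 CPM on chow, 28.3 to 70.7 CPM on WTD and 16.9 to 150.4 CPM with atorvastatin, with medians of 15.4, 49.5 and 36.1 CPM. All 16 WTD-fed and all 16 treated mice were above the chow median. The log2 fold change was 1.25 on WTD against chow (SE 0.31, edgeR adjusted p = 0.0010) and 1.51 with atorvastatin against chow (SE 0.31, edgeR adjusted p = 0.00017). Atorvastatin against WTD gave 0.26 (SE 0.26, edgeR adjusted p = 0.61), while limma-voom, which gives outlying samples less weight, gave -0.29.

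FXR itself was lower on WTD. Nr1h4 was between 182 and 248 CPM on chow with a median of 218, between 79.2 and 179 CPM on WTD with a median of 114, and between 105 and 181 CPM with atorvastatin with a median of 152. Neither WTD-fed group overlapped with chow. Of all tested genes 4.37% had no overlap between atorvastatin and chow (1.50% lower, 2.88% higher), and 0.00642% (higher) had none between atorvastatin and WTD, where all 10 genes overlapped. The log2 fold change was -0.84 on WTD (SE 0.10, edgeR adjusted p = 3.0e-10) and -0.55 with atorvastatin against chow (SE 0.10, edgeR adjusted p = 1.1e-05). Treated mice were 0.30 above WTD-fed mice on the log2 scale, with an adjusted p of 0.016 in edgeR, above the threshold. Without WTD replicate 15, the highest WTD-fed mouse in Nr1h4 too, the edgeR adjusted p was 0.0018, which follows in part from that choice.

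Nr0b2 (SHP), a known FXR target, showed no call in any comparison. Its ranges were 24.4 to 71.3 CPM on chow, 24.6 to 65.4 CPM on WTD and 22.8 to 80.1 CPM with atorvastatin, with medians of 48.1, 43.6 and 49.4 CPM. The log2 fold changes were -0.16 (SE 0.18, edgeR adjusted p = 0.49) on WTD against chow and 0.10 (SE 0.15, adjusted p = 0.78) with atorvastatin against WTD. The spread within groups was wide, with a coefficient of variation of 29.7% on chow against 10.6% for Nr1h4. Nr0b2 is known to follow the day cycle, and transcripts of the clock differed between mice here. Dbp, a clock output gene picked after its values were seen, ranged from 0 to 81.5 CPM on chow, 3.14 to 182 CPM on WTD and 8.42 to 203 CPM with atorvastatin, and its part in the spread of Nr0b2 was not tested.

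Per kb of exon, Slc10a1 was highest on chow with 257 ± 40.2 CPM per kb (SD, n = 10), followed by Slco1b2 with 179 ± 23.8 and Abcb11 with 173 ± 15.1. Slc10a1 exceeded Slco1b2 in 9 of 10 chow-fed mice, while Slco1b2 exceeded Abcb11 in 5 of 10, so the order of the latter pair is not settled. Nr1h4 (93.0), Abcc2 (67.3), Abcc3 (64.2), Nr0b2 (43.1) and Slco1a4 (30.6 CPM per kb) came next, and Slco1a1 (3.87) and Abcc4 (3.28 CPM per kb) were lowest. On WTD the highest was Slco1b2 with 111 ± 30.6 CPM per kb (SD, n = 16), and Abcb11 (92.9 ± 15.1) and Slc10a1 (87.9 ± 48.3) came next without a settled order. With atorvastatin Slc10a1 was again highest with 181 ± 71.8 CPM per kb (SD, n = 16), above Slco1b2 in 12 of 16 mice. With the length of the longest transcript in place of all exons, the highest gene of each group was the same, but on WTD Slc10a1 (110.5 CPM per kb) came before Abcb11 (95.1). Abcc4 exceeded Slco1a1 in all 32 WTD-fed mice, and their ranges overlapped on chow.

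Ratios of counts within a mouse do not depend on the scaling of libraries. For 4 ratios in 3 comparisons they were tested with 2-sided permutation tests (100000 permutations) and adjusted over the 12 tests. The log2 ratio of Abcb11 to Slc10a1, bile salt export against uptake, was 0.67 ± 0.20 in chow-fed (mean ± SD), 1.41 ± 0.45 in WTD-fed and 0.80 ± 0.46 in treated mice. It was 0.75 higher on WTD than on chow (permutation test, adjusted p = 0.00084) and fell by 0.61 with atorvastatin (permutation test, adjusted p = 0.0026). Atorvastatin and chow differed by 0.14 (permutation test, adjusted p = 0.47). The ratio of Abcc3 to Abcc2, basolateral against canalicular export, differed by 0.01 between WTD and chow (permutation test, adjusted p = 0.92) and by -0.35 between atorvastatin and WTD (permutation test, adjusted p = 0.00048).

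The level of Nr0b2 relative to that of Nr1h4 differed with the diet. This follows mostly from Nr1h4, which fell on WTD (log2 fold change -0.84), whereas Nr0b2 was not called (-0.16). The log2 ratio of Nr0b2 to Nr1h4 was -2.19 ± 0.47 in chow-fed (mean ± SD), -1.48 ± 0.58 in WTD-fed and -1.70 ± 0.40 in treated mice. The difference of WTD from chow was 0.71 (permutation test, adjusted p = 0.0068), that of atorvastatin from chow 0.49 (permutation test, adjusted p = 0.014), and that of atorvastatin from WTD -0.22 (permutation test, adjusted p = 0.29). The log2 ratio of Slco1a4 to Slco1a1 had a mean of 8.27 on WTD and 4.67 on chow (permutation test, adjusted p = 0.0068), with a wide spread from libraries with few or 0 counts of Slco1a1.

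**Figure D3:**
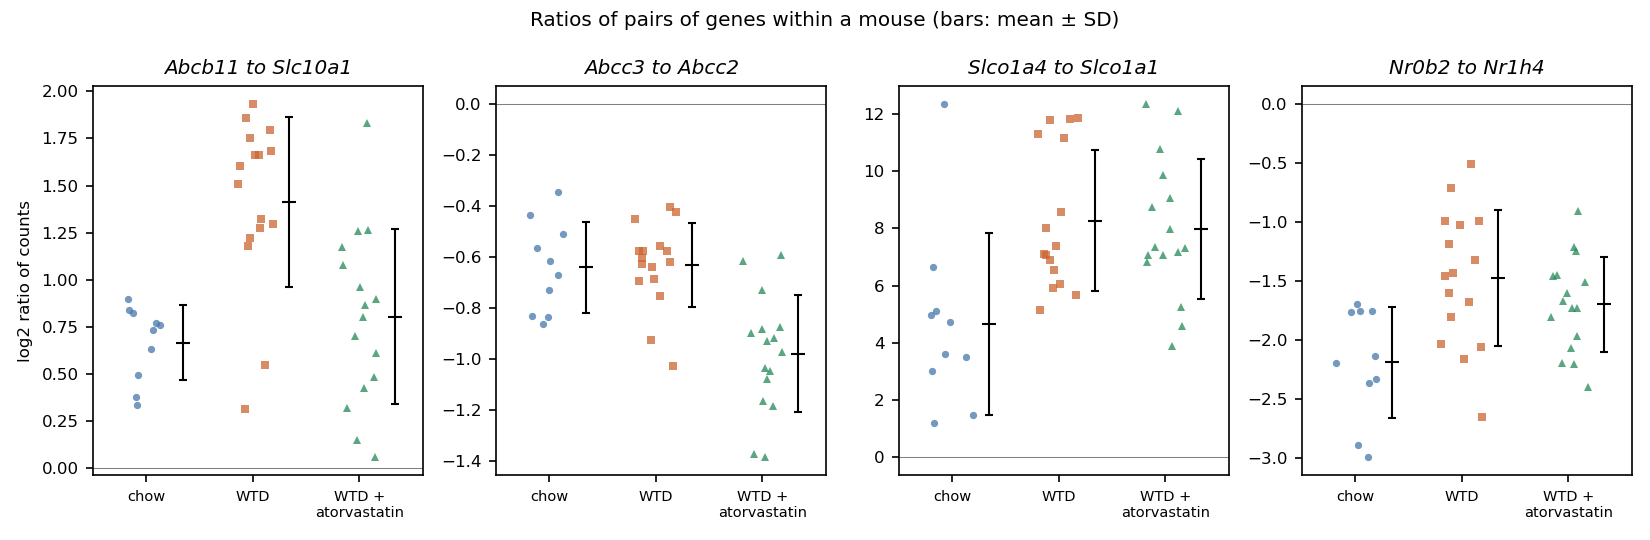
Log2 ratio of the counts of a pair of genes within each mouse (vertical axes) in the 3 groups, with 1 point per mouse and bars for the mean ± SD. The ratio of Abcb11 to Slc10a1 is highest on WTD, and that of Abcc3 to Abcc2 is lowest with atorvastatin.

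The atorvastatin-treated mice were split by their Abcc4 level, as a description, since any group has a widest gap. The widest gap in Abcc4 lay between 42.8 and 78.7 CPM and set 6 mice (replicates 1, 2, 3, 4, 7 and 15) apart from the other 10. The same 6 mice had the 6 lowest levels of Slc10a1 in the group, at 118 to 295 CPM, where the other 10 had 389.8 to 682 CPM. The widest gap in Slc10a1 itself lay elsewhere, between 551 and 682 CPM. No WTD-fed mouse without treatment exceeded 70.7 CPM of Abcc4. The 6 mice were chosen by high Abcc4, so their place above that group follows at least in part from the choice. In Slc10a1 their lowest value was 118 CPM, beside 119.8 to 561 CPM on WTD. In the 6 mice the sum of hepatocyte markers was 60268 to 82539 CPM and that of markers of stellate cells and fibroblasts 1189 to 2021 CPM. The corresponding ranges in the other 10 mice were 100066 to 123664 CPM and 620.5 to 970.4 CPM, without overlap in either sum. Abcb11 (420.0 to 549 against 529 to 834 CPM), Slco1b2 (440.5 to 708 against 649 to 1101 CPM) and Nr1h4 (105 to 159 against 145 to 181 CPM) overlapped slightly between the sets, and Abcc2 and Abcc3 overlapped broadly. The depth of sequencing overlapped as well. The split was seen in the data and corresponds to no label, so no test was made between the sets. The share of all tested genes without overlap between them is not given, so the lack of overlap in Slc10a1 and the 2 sums is a description only. Cage, food and drug intake of each mouse and a check of its identity are not in the labels, and their part in the split and in WTD replicate 15 was not tested.

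**Figure D4:**
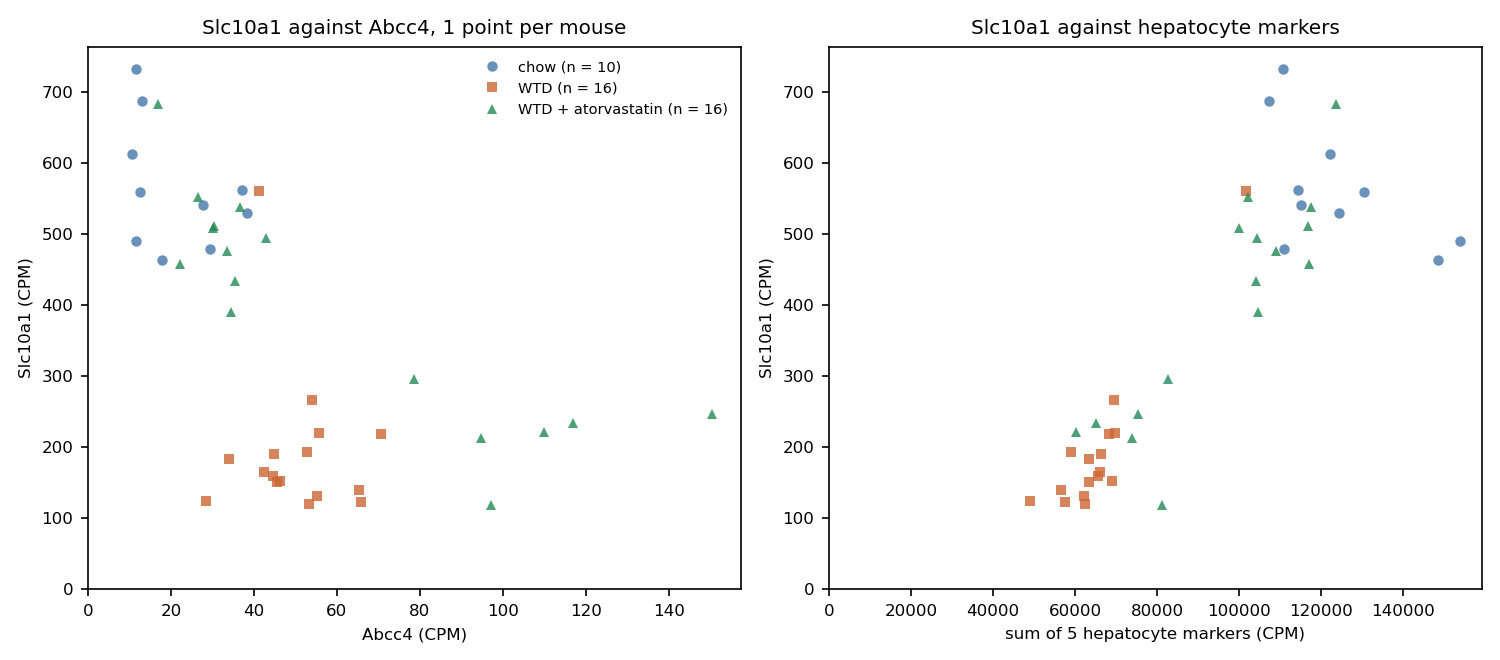
Slc10a1 in CPM (vertical axes) against Abcc4 in CPM (left) and against the sum of 5 hepatocyte markers in CPM (right), with 1 point per mouse of the 3 groups. Of the atorvastatin-treated mice, 6 lie at low Slc10a1, high Abcc4 and low hepatocyte markers, and the WTD-fed mouse close to the chow-fed mice is replicate 15.

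WTD replicate 15 lay apart from its group in Slc10a1 and in some marker sums, but not in Abcc4 or in the sum of macrophage markers. It had 561 CPM of Slc10a1, 698 of Abcb11, 1047 of Slco1b2 and 179 of Nr1h4, each the highest of its group. Its 41.2 CPM of Abcc4 lay within the 28.3 to 70.7 CPM of the WTD-fed mice. Its sum of hepatocyte markers was 101611 CPM, the highest on WTD, and its sum of stellate cell and fibroblast markers was 711 CPM, the lowest on WTD. Its sum of macrophage markers was 1803 CPM, within the 1631 to 2689 CPM of the WTD-fed mice. Without it Slco1a4, Slco1b2 and Nr1h4, in which it was the highest WTD-fed mouse, were also called between atorvastatin and WTD. The share of all tested genes called without it is not given, so these added calls are not read as a result about the 10 genes.

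Within the groups, Nr1h4 was compared with Nr0b2, Abcb11, Slc10a1 and Slco1b2, and Abcc3 with Abcc4, which makes 15 relations on log2 CPM with p adjusted over them. In WTD-fed mice Nr1h4 and Slc10a1 were correlated (Pearson r = 0.72, permutation test, adjusted p = 0.0026, and Spearman rho = 0.69, adjusted p = 0.017, n = 16), and r was 0.70 without the 2 mice farthest from the median of Nr1h4 and 0.78 without the 5 WTD libraries that missed weak genes, replicate 15 among them. On chow r was 0.54 and rho 0.44 (permutation tests, adjusted p = 0.21 and 0.44, n = 10). Nr1h4 and Nr0b2 did not pass on chow (r = 0.17, rho = 0.12, permutation tests, adjusted p = 0.79 and 0.82) or on WTD (r = -0.05, rho = -0.10, permutation tests, adjusted p = 0.85 and 0.82). No other relation on chow or WTD had an adjusted p under 0.05. Since the treated mice were split by Abcc4 after the data were seen, no r over all 16 is given for them. Their relations remain among the 15 over which p was adjusted, and some had a smaller p than Nr1h4 with Slc10a1 on WTD. This lowers the adjusted p of the latter, whose unadjusted p was 0.00069 for r and 0.0046 for rho (permutation tests). In the 10 treated mice with lower Abcc4 the r of Nr1h4 with Slc10a1 was 0.65 and rho 0.36 (permutation tests, adjusted p = 0.14 and 0.44 over 8 relations), and in the 6 with higher Abcc4 these were 0.84 and 0.94 (exact permutation tests, adjusted p = 0.14 and 0.13). With Slco1b2 the r in the 10 and the 6 mice was 0.46 and 0.86, and with Abcb11 0.33 and 0.79, none of which passed. Without the 2 mice farthest from the median of Nr1h4, r with Slc10a1 was 0.32 in the 10 and 0.74 in the 6 mice. With Slco1b2 it was 0.0019 and 0.081, and with Abcb11 it was 0.31 and 0.87. Leaving these mice out narrows the range of Nr1h4 and leaves few mice, above all in the set of 6. No conclusion is therefore drawn from these r.

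Genes most like each of the 10 were sought among 15573 others by the Pearson r of log2 CPM over 42 mice, after the mean of each group was taken away. This leaves the split among the treated mice and WTD replicate 15 in the values, so the r below are descriptions that include both. Slc10a1 was most like Sult2a8 (a sulfotransferase), Car5a (a mitochondrial carbonic anhydrase) and Cyp2d37-ps, each at r = 0.91. Slco1b2 was most like Cyp2e1 (0.92), which oxidizes ethanol, and Selenop (0.86), the plasma selenoprotein. Abcb11 was closest to Gpld1 (0.88), Abcc2 to Dhtkd1 (0.71), Abcc3 to Spen (0.66), Slco1a4 to Ahcy (0.85), Slco1a1 to Plekhh2 (0.74), Nr1h4 to Stard5 (0.80) and Nr0b2 to Zfp36 (0.61). The genes nearest to Abcc4 were Srxn1 (0.87), Gstm3 (0.86) and Gstm1 (0.84). Srxn1 encodes sulfiredoxin and the Gstm genes glutathione transferases, which are known antioxidant response genes. In the 6 treated mice with high Abcc4, Srxn1 was at 188 to 469 CPM and Gstm3 at 587 to 1622 CPM, against 50.3 to 139 and 134 to 485 CPM in the other 10. Since these genes were chosen for their likeness to Abcc4 over the same mice, and the 6 mice by Abcc4, that separation follows from the choice. Among pairs of the 10 genes, the highest r was that of Slc10a1 with Slco1b2 (0.79), followed by Slco1a4 with Slco1b2 (0.78), and Nr1h4 with Nr0b2 had 0.16.

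Related genes of the same system were taken from 5 lists with 55 genes in all, of which 47 were tested. On WTD 8 were called higher and 23 lower, and with atorvastatin against WTD 15 were called higher and 0 lower. Atorvastatin against chow left 9 higher and 16 lower. Beside these counts and those of each list below stand the shares of all tested genes that were called. They were 33.5% on WTD against chow (17.5% higher, 16.0% lower) and 7.10% with atorvastatin against WTD (4.84% higher, 2.26% lower). For atorvastatin against chow the share was 25.0% (14.2% higher, 10.7% lower).

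Among 14 tested transporters outside the 10 genes, 4 were called higher on WTD and 5 lower, and 4 higher and 0 lower with atorvastatin against WTD. Exporters of this list went both ways on WTD. Abcb1a, the drug pump MDR1A, rose from 7.75 ± 1.92 to 17.2 ± 4.45 CPM (edgeR adjusted p = 6.5e-08) and had 17.0 ± 4.74 CPM with atorvastatin. Abcc1, Abcc5 and Abcg2 were also called higher, while Abcb4 and Abcb1b were not called. The exporter Abcc6 fell from 452 ± 42.5 to 241 ± 47.0 CPM (log2 fold change -0.91, edgeR adjusted p = 4.9e-11). Those called lower also included Slc22a7, the organic anion transporter OAT2, from 49.9 to 7.33 CPM (log2 fold change -2.77, edgeR adjusted p = 3.1e-16), and Slco2a1, a prostaglandin transporter, from 121 ± 16.7 to 50.4 ± 8.21 CPM (edgeR adjusted p = 1.2e-16). Slco2a1 had 73.9 ± 12.9 CPM with atorvastatin (edgeR adjusted p = 1.5e-05 against WTD), and Abcc6 rose with treatment as well. Slc51b, the subunit of the basolateral exporter OST that FXR induces, was at 1.68 ± 1.74 CPM on chow and 2.40 ± 2.78 CPM on WTD and did not pass (edgeR adjusted p = 0.57).

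Of 12 tested receptors and transcription factors around FXR, 0 were called higher and 6 lower on WTD. Nr1i3 (CAR), the receptor that senses drugs, had 545 ± 76.0 CPM on chow, 198 ± 84.3 on WTD and 281 ± 104 with atorvastatin (SD, n = 10, 16 and 16), with a log2 fold change of -1.46 on WTD (SE 0.18, edgeR adjusted p = 1.3e-08). Nr1i2 (PXR) and Fgfr4, the receptor for the intestinal hormone FGF15, were called lower too. With atorvastatin against WTD, 4 were called higher and 0 lower. Klb, the co-receptor of Fgfr4, rose from 19.8 ± 4.66 to 33.6 ± 8.00 CPM (edgeR adjusted p = 9.7e-05), and Hnf4a and Fgfr4 rose with it.

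Of 11 tested enzymes of bile acid synthesis and conjugation, 9 were called lower and 0 higher on WTD, and 7 higher and 0 lower with atorvastatin against WTD. Baat, which conjugates bile acids with taurine and glycine, fell from 330.4 ± 31.4 to 168 ± 21.7 CPM (edgeR adjusted p = 1.1e-15) and had 205 ± 30.0 CPM with atorvastatin (edgeR adjusted p = 0.0024 against WTD). Cyp27a1 and Akr1c6 followed by p on WTD, and Akr1d1 and Slc27a5 led with atorvastatin. Cyp7a1, the rate-limiting enzyme of the classic pathway, and Cyp8b1, which makes cholic acid, are genes that SHP is known to repress and were looked up after their values were known. Cyp7a1 was at 149.9 ± 54.2 CPM on chow, 54.4 ± 27.5 on WTD (edgeR adjusted p = 5.9e-06) and 85.1 ± 37.7 with atorvastatin (edgeR adjusted p = 0.051 against WTD). Cyp8b1 fell from 313 ± 93.6 to 65.4 ± 27.5 CPM (edgeR adjusted p = 5.7e-08) and had 131 ± 80.5 CPM with atorvastatin (edgeR adjusted p = 0.0096 against WTD). Both were thus lower on WTD, where Nr0b2 itself was not called. Hsd3b7 of this list had 0 counts in every mouse.

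Of 6 tested other FXR-induced genes, 1 was called higher and 3 lower on WTD, and 2 higher and 0 lower with atorvastatin. Baat and Slc27a5, which stand in this list too, and Sdc1 were lower, while Pltp, the phospholipid transfer protein, was higher, from 99.8 ± 36.5 to 277 ± 60.2 CPM (edgeR adjusted p = 7.8e-12). Of the FXR targets named here, Abcb11, Baat, Slc27a5 and Sdc1 were called lower on WTD and Pltp higher, while Nr0b2, Abcb4 and Slc51b were not called. Of all tested genes 17.5% were called higher on WTD and 16.0% lower, so 1 of 6 higher is near the share of all genes. Apoc2 of this list had 0 counts in every mouse.

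Of 8 tested targets of CAR, PXR and NRF2, 3 were called higher and 2 lower on WTD, and 0 in either direction with atorvastatin against WTD by edgeR. There 1 of the 8, Cyp2b10, had an unadjusted p under 0.05 (0.019), and DESeq2 called 0 while limma-voom and the fit without the 9 libraries called Cyp2b10 higher. Those higher on WTD were Hmox1, Nqo1 and Srxn1, which NRF2 is known to induce, and those lower were Cyp2b10, a CAR target, and Cyp3a11, a PXR target. The other 3 tested genes of this list, NRF2 targets among them, were not called on WTD. Hmox1 rose from 28.0 ± 10.7 to 82.4 ± 30.7 CPM (edgeR adjusted p = 2.6e-10). Cyp2b10 fell from 23.4 ± 10.2 to 1.35 ± 1.89 CPM (edgeR adjusted p = 6.0e-07). Ugt1a1 of this list and Slc10a5 of the transporters had 0 counts in every mouse. These and the 2 listed above each overlap another gene on the same strand, and for such genes the deposited counts allow no comparison.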

How the data were processed

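Liver polyA RNA of 42 mice was sequenced from strand-specific libraries. Per the labels and the study's methods, the authors trimmed read pairs with Trimmomatic, aligned them to GRCm38 with STAR 2.5, counted them per gene with HTSeq 0.6.1p1 and deposited raw counts for 54446 genes, with DESeq2 named for their own comparisons. The merged table was identical to all 42 single tables. Its 5 summary lines (12.9% of counted pairs, with 5.95% ambiguous between genes) were left out of library sizes, so overlapping genes on the same strand lose counts. Symbols and positions were taken from GENCODE vM21 for 54409 genes.

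Weak genes were removed by filterByExpr at a count of 10 and a total of 15, and the others were scaled by TMM and fitted over all 42 mice in 3 groups with edgeR 4.0.16 (robust quasi-likelihood, R 4.3.3). Genes were called at a Benjamini-Hochberg adjusted p under 0.01. Replicates were separate mice. Log2 ratios were taken after adding 0.5 counts. Permutation tests and figures used Python 3.11.15 (matplotlib 3.10.9, scipy 1.17.1, pandas 2.3.3, numpy 2.4.6). The fit was tested on simulated data of 14803 genes, of which a part was changed by 1 on the log2 scale. Of these changed genes, 134 of 200 were called for WTD against chow (1 false call) and 77 of 100 for atorvastatin against WTD (2 false calls).

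The alternatives were an adjusted p under 0.05, DESeq2 1.42.0, limma-voom 3.58.1 with quality weights, RLE and upper-quartile scaling, a minimum of 10 counts in every mouse, no filter, a fit without robust estimation, only the 2 groups compared, leaving out the 20 most abundant genes, leaving out or adjusting for libraries with over 20% of genes at 1 to 2 CPM without a count, transcript length, 5 added counts in ratios, and leaving out each mouse. Named were the 10 genes, the 3 genes with the smallest p of each related list in each comparison, list genes at 0 in every mouse, and the 3 genes most like each of the 10. Other list genes were named after their values were seen. A gene that this rule would name is not reported here. The 10 genes, the lists and the tests were chosen with earlier results of these data known.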

Additional observations from a re-analysis of the deposited data

How the results depend on the processing

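The count of the 10 genes called stayed at 7 to 9 for WTD against chow and at 4 to 6 for atorvastatin against chow over the 12 alternatives. The share of all tested genes called ranged over 23.6% to 43.9% and 16.8% to 34.6% in these comparisons. For atorvastatin against WTD the count was 6 instead of 3 at an adjusted p under 0.05, 6 with limma-voom and 6 without the 9 libraries that missed weak genes, and 3 in the other 9 alternatives. More of all tested genes were called in these 3 settings as well, with 13.0%, 20.2% and 10.5% against 7.10% in the main fit. The other 9 called 5.15% to 11.6%. Leaving out 1 mouse gave 3 to 6 of the 10 genes, with 6 without WTD replicate 15 and 5 without atorvastatin replicate 1 or 7. The shares of all tested genes called in these fits are not given, so no conclusion is drawn from these counts. Abcc2 on WTD against chow lost its call in 7 alternatives, and Slco1b2 between atorvastatin and chow was called without atorvastatin replicate 14 (adjusted p = 0.0095).

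Among values that were not called, the direction reversed for Abcc4 between atorvastatin and WTD with limma-voom (-0.29). Nr0b2 between atorvastatin and chow reversed with limma-voom (0.11) and with the missed share as a covariate (0.066), and over the fits that left out 1 mouse it ranged from -0.14 to 0.015. Without the 9 libraries the log2 ratio of Slco1a4 to Slco1a1 between atorvastatin and WTD was 0.21, and r of Nr1h4 with Abcb11 on WTD was -0.012. Within the sets of 10 and 6 treated mice, chosen after seeing the data and with fewer mice than the group of 16, no r passed. These were 0.65 and 0.84 for Nr1h4 with Slc10a1, 0.33 and 0.79 with Abcb11, 0.46 and 0.86 with Slco1b2, and -0.43 and 0.37 with Nr0b2. The cause of the other shifts was not tested. Slco1a1 could not be tested with at least 10 counts in every mouse, and its low counts limit what can be said of it. No paired analysis was possible because replicate numbers name different mice in each group.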

Other observations

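Clock genes, looked up after their values were seen, varied widely within groups. Dbp had medians of 3.25, 20.3 and 58.6 CPM on chow, on WTD and with atorvastatin. Arntl, which peaks opposite to Dbp, had medians of 54.6, 29.3 and 21.0 CPM and highest values of 69.2, 47.6 and 53.6 CPM. The time of day at which each mouse was killed is not in the labels, and the part of it in the levels of the 10 genes was not tested.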
